A study of Mus musculus with 32 samples.

Results

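The genes described here are the 10 genes of melanin synthesis and of the melanosome that were followed in retinal pigment epithelium (RPE): *Tyr*, *Tyrp1*, *Dct*, *Pmel*, *Mlana*, *Slc45a2*, *Oca2*, *Slc24a5*, *Gpr143*, and *Rab38*. They were chosen by name, each was found as 1 Ensembl gene in the count table, and they are 10 of its 34453 genes. The table holds estimated counts from 32 libraries of RPE RNA, 1 for each eye of 16 mice labelled rd1, a line whose rods degenerate. In each mouse, AAV-Best1-Nrf2 plus the GFP vector AAV-Best1-GFP went into 1 eye (Nrf2 eye), and the GFP vector alone went into the other (control eye), so that every library comes from a GFP-injected eye. Eyes of 1 age with the same number in the labels were taken as those of 1 mouse. The human BEST1 promoter drives the human NFE2L2 cDNA in RPE, and the eyes were taken at P20 (7 mice) or P40 (9 mice). The methods of the study list more of the P40 pairs as CD1 than as rd1, and fewer P20 pairs than the labels hold. The labels call all mice rd1, so most P40 mice may be of another strain than the P20 mice, and in the comparisons of the ages strain and age cannot be told apart. FVB rd1 and CD1 mice are albino.

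Melanin is made in melanosomes, organelles related to lysosomes that the RPE fills before and around birth and then keeps. Tyrosinase starts the synthesis from tyrosine, TYRP1 and DCT act on later intermediates, PMEL forms the fibrils on which melanin is laid down, and transporters such as SLC45A2, OCA2, and SLC24A5 set the ions and the pH inside. Albino RPE lacks functional tyrosinase and so lacks melanin, but it still forms melanosomes without pigment and transcribes these genes. The factors MITF and OTX2 are known to drive several of these genes in the RPE, and MITF binds the E-box CATGTG in the promoters of the melanin enzymes.

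Upstream sequences are shown for description, and their part in the levels of these genes was not tested. RefSeq promoters (GRCm38.p6) were at hand for 5 of the 10 genes: *Tyr*, *Tyrp1*, *Dct*, *Oca2*, and *Slc24a5*. In the 250 bases upstream of the start, all 5 held CATGTG on 1 of the 2 strands, a word found in 12.3% of the 32851 promoter windows of this table. *Dct* held it at 2 places. The 3 enzyme genes shared a longer stretch around it, which was noticed only after the sequences were seen and was found in 0.155% of all windows. The windows below are 30 bases long and run 5′ to 3′ on the strand of the gene. Capitals mark the shared 10 bases in the enzyme genes and the E-box, here as its reverse complement, in the others.

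Tyr chr7:87493516-87493545, minus strand: gaaaaagttaGTCATGTGCTttgcagaaga

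Tyrp1 chr4:80834155-80834184, plus strand: tggggagggaGTCATGTGCTgcctagtagt

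Dct chr14:118052379-118052408, minus strand: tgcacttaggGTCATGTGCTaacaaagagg

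Dct chr14:118052461-118052490, minus strand: gcttggctgggaCACATGagcccaataaag

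Oca2 chr7:56239561-56239590, plus strand: ttgagcttgctaCACATGgctggaattttc

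Slc24a5 chr2:125068097-125068126, plus strand: ggaggaaggagactgctCACATGattcagc

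The last base of the E-box lay 16 bases before the start in *Tyr*, 41 in *Tyrp1*, 145 and 227 in *Dct*, 181 in *Oca2*, and 8 in *Slc24a5*. The window of *Tyrp1* lies inside an exon of another annotated transcript of the gene, the window of *Slc24a5* runs into its first exon, and the others overlap no exon of their gene. The other E-box form, CACGTG (6.02% of all windows), and the antioxidant response element, the site that NRF2 is known to bind (10.2% of all windows), were not in the 5 windows. The core of the OTX and CRX site, TAATCC (6.25% of all windows), was in *Dct* only. The whole upstream windows of *Tyr* and *Dct*, which no exon of these genes overlaps, are given for context, with the E-box and TAATCC in capitals.

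Tyr chr7:87493513-87493762, minus strand: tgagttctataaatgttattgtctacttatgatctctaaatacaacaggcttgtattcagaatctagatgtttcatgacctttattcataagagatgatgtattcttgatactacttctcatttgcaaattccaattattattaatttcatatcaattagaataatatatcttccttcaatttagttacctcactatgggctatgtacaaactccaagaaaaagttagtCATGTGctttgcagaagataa

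Dct chr14:118052247-118052496, minus strand: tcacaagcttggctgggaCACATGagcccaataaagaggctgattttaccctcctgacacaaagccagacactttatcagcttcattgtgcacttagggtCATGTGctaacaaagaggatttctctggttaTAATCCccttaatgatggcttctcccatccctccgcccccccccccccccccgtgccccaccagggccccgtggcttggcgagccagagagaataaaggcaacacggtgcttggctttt

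The libraries held 16548332 to 50542797 counts. The NFE2L2 transgene was at 1096 to 9616 CPM (counts scaled to the size of the library) in Nrf2 eyes at P20 and at 3129 to 10483 CPM at P40. It was at 0 to 92.8 CPM in control eyes at P40 and at 0.948 to 155 CPM in control eyes at P20, except the library labelled control of P20 mouse 3, at 1110 CPM, which overlaps the library labelled Nrf2 of P20 mouse 4, at 1096 CPM. *Rpe65*, an RPE enzyme of the visual cycle, was at 669 to 3665 CPM in control eyes, whereas *Best1* was between 0.258 and 4.21 CPM in all libraries. Of the P40 libraries, both eyes of mouse 3 and of mouse 8, the control eye of mouse 5, and the Nrf2 eye of mouse 6 had the 6 highest scores on the first principal component. That component was taken over 11570 expressed coding genes and held 31.8% of their variance. For each library, the deviation of log2 CPM from the gene's mean over the 32 libraries was fitted on log2 mRNA length over the same 11570 genes. The slope was 0.0713 to 0.260 at P20 and −0.504 to 0.227 at P40. Relative to the mean of the 32 libraries, several P40 libraries were thus shifted toward short mRNAs.

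All 10 genes were detected in all 32 libraries. Per kilobase of the longest mRNA, the order in control eyes at P20 ran from *Pmel*, with a median of 2097 CPM per kb, through *Dct* (1686), *Tyrp1* (634), *Mlana* (361), *Slc24a5* (211), *Oca2* (82.9), *Tyr* (81.2), *Gpr143* (59.2), and *Rab38* (35.7) to *Slc45a2* (19.3). *Pmel* ranked 16 and *Dct* ranked 20 among 21711 coding genes by this level. In this order the ranges of neighbours overlapped except between *Slc24a5* and *Oca2*. Within a library the first 5 genes kept the order in all 7 eyes, whereas *Oca2* exceeded *Tyr* in only 4 of 7. In control eyes at P40, *Dct* led with 1174 CPM per kb and *Pmel* followed with 470, and *Dct* exceeded *Pmel* in all 9 libraries. In Nrf2 eyes at P40 the order was *Dct* (885), *Mlana* (416), *Tyrp1* (319), *Pmel* (304), and *Slc24a5* (140), and the ranges of the first 4 genes overlapped. This order of medians was not that of most libraries, since *Mlana* exceeded *Tyrp1* in only 3 of 9 and *Tyrp1* exceeded *Pmel* in only 4 of 9. *Pmel* led at P20 and not at P40, where its median ranked 111 in control eyes and 195 in Nrf2 eyes among coding genes. The summed level of the 10 genes had a median of 11664 CPM in control eyes at P20 and of 6641 CPM at P40, and of 12916 and 5015 CPM in Nrf2 eyes.

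**Figure D1:**
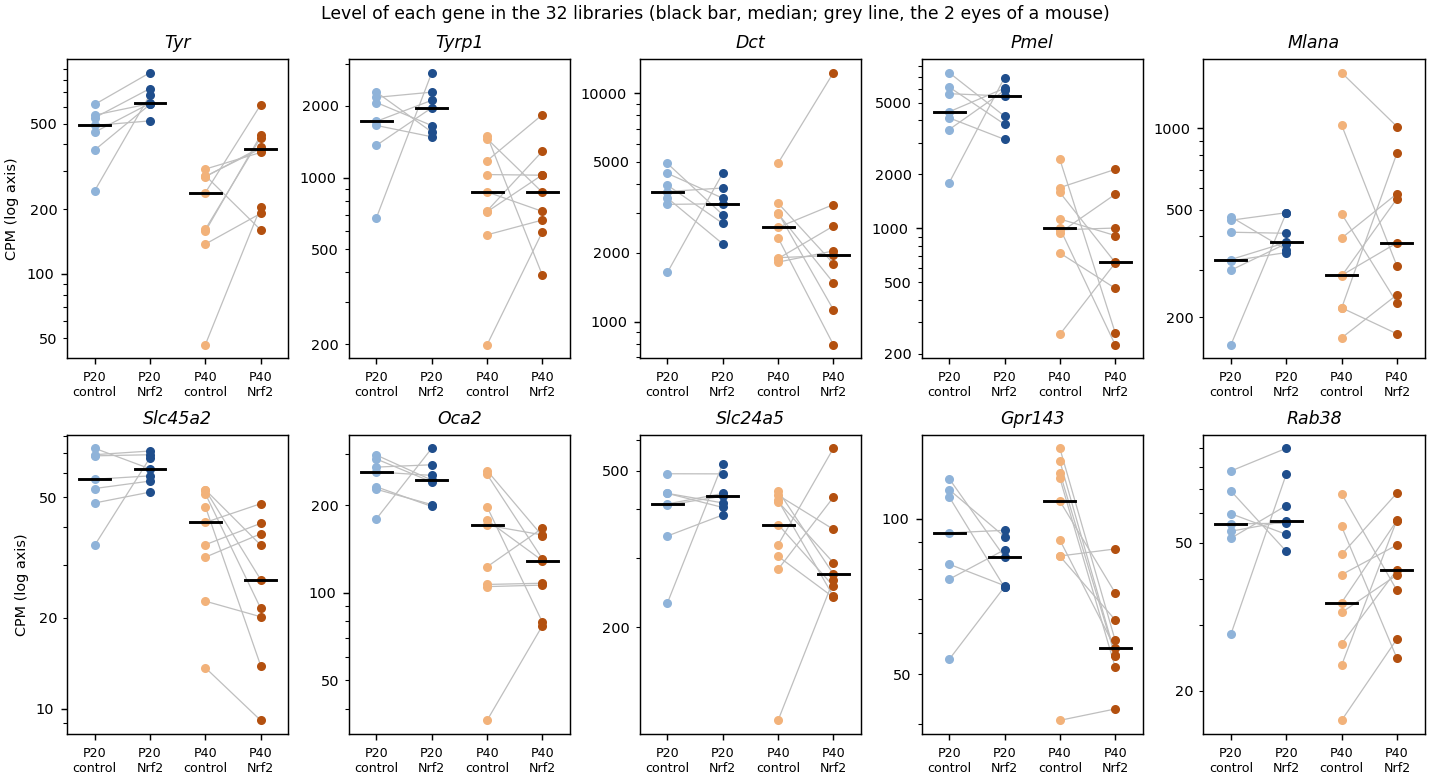
Level of the 10 genes in each library, in CPM on a log axis, for control and Nrf2 eyes at P20 (7 mice) and P40 (9 mice). Points are libraries, black bars are medians, and grey lines join the eyes of a mouse. *Pmel* in Nrf2 eyes was at 3134 to 6917 CPM at P20 and at 225 to 2132 CPM at P40, without overlap. The share of all genes without overlap is not given, so this only describes the libraries.

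The first comparison asked how the genes differed between P20 and P40. *Pmel*, the fibril protein, was the gene with the largest difference, about 3.83-fold lower at P40 in control eyes and 5.72-fold lower in Nrf2 eyes. *Tyr* was lower at P40 in control eyes, and *Oca2* was lower in Nrf2 eyes. By edgeR's quasi-likelihood test, adjusted over all genes, 2 of 10 genes were lower and 0 were higher in control eyes, where 6.42% of all genes tested were called lower and 8.34% higher. In Nrf2 eyes 2 of 10 were lower and 0 higher, where 0.334% of all genes were called lower and 0.167% higher. The median log2 fold change of the 10 genes was −0.52 for control and −0.67 for Nrf2 eyes, and 8 and 9 of the 10 were negative. In these bulk samples, fewer cells of a type and less RNA per cell cannot be told apart.

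*Pmel* (ENSMUSG00000025359, chromosome 10, 128704195 to 128720238 on GRCm38) was at 1797 to 7371 CPM with a median of 4466 in control eyes at P20, and at 257 to 2426 CPM with a median of 1002 at P40. In Nrf2 eyes it was at 3134 to 6917 CPM with a median of 5467 at P20, and at 225 to 2132 CPM with a median of 646 at P40. In control eyes, 8 of 9 P40 libraries were below the lowest P20 library, and only the control eye of P40 mouse 6 was above it. In Nrf2 eyes, all 9 were below all 7, which only describes the libraries, since the share of all genes without overlap is not given. The log2 fold change was −1.94 ± 0.36 (SE; 7 and 9 eyes; adjusted p = 0.00895, edgeR) in control eyes and −2.51 ± 0.40 (adjusted p = 0.00748) in Nrf2 eyes. *Pmel* was called in control eyes under every alternative tried, with log2 fold changes of −3.18 to −1.77. Without P20 mice 3 and 4 the values were −1.87 (adjusted p = 0.0426) in control eyes and −2.54 (adjusted p = 0.0386) in Nrf2 eyes. In Nrf2 eyes it was not called without P40 mice 3, 5, 6, and 8 (−2.23, adjusted p = 0.0967) or with scaling to RPE markers (−2.69, adjusted p = 0.158), and the log2 fold change was −2.83 to −2.19 over all alternatives. *Pmel* overlaps *Cdk2* by 837 bases and *Dgka* by 105 bases on the opposite strand, and the kit does not mark strand. *Cdk2* was at −0.48 (adjusted p = 0.0796) in control eyes and −0.57 (adjusted p = 0.114) in Nrf2 eyes.

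*Mlana*, whose product helps PMEL to mature, did not pass the test, and its value changed sign with a correction for mRNA length and GC content. It was at 158 to 470 CPM with a median of 327 in control eyes at P20, and at 168 to 1608 CPM with a median of 286 at P40. In Nrf2 eyes it was at 347 to 487 CPM at P20 and at 173 to 1016 CPM at P40. The P40 range enclosed nearly all of the P20 range, and its highest values were those of mouse 3 in both groups. The log2 fold change was 0.69 ± 0.47 (adjusted p = 0.299) in control eyes and 0.31 ± 0.34 (adjusted p = 0.594) in Nrf2 eyes. With the correction, it turned to −0.58 ± 0.27 (adjusted p = 0.164) and to −0.71 ± 0.15 (adjusted p = 0.0361). *Mlana* has the shortest mRNA of the 10 genes, at 906 bases, and *Tyr* the longest, at 6042.

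**Figure D2:**
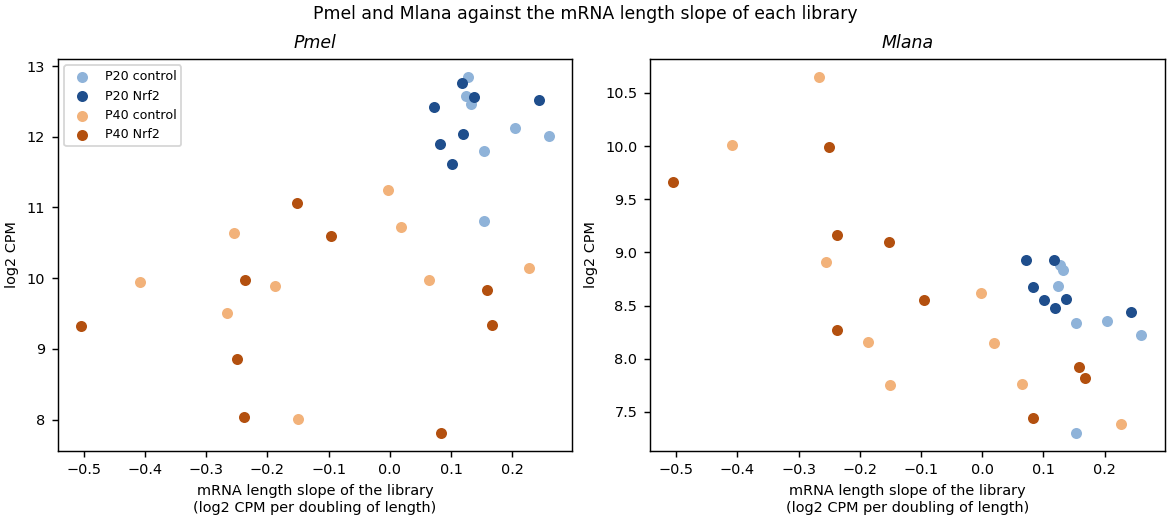
log2 CPM of *Pmel* and *Mlana* against the mRNA length slope of each of the 32 libraries. A negative slope means a library shifted toward short mRNAs relative to the mean of the 32 libraries. Pearson's r was 0.0965 for *Pmel* and −0.783 for *Mlana* over the 18 P40 libraries, and 0.567 and −0.622 over all 32.

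Over the 18 P40 libraries, which hold both eyes of 9 mice, the log2 CPM of *Mlana* and the length slope correlated with r = −0.783. For *Pmel* the value was 0.0965. Over the 14 P20 libraries r was −0.431 for *Mlana* and −0.0467 for *Pmel*, and over all 32 libraries, in which the slope also differs between the ages, it was −0.622 and 0.567. The part of the length composition in the lower *Pmel* was not tested beyond the correction described further on.

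Of the melanin enzymes, *Tyr* (ENSMUSG00000004651, chromosome 7, 87424771 to 87493512) was at 244 to 614 CPM with a median of 491 in control eyes at P20, and at 46.7 to 307 CPM with a median of 238 at P40. In Nrf2 eyes it was at 515 to 864 CPM with a median of 622 at P20, and at 160 to 612 CPM with a median of 382 at P40. The groups overlapped in both kinds of eye, but 8 of 9 P40 Nrf2 eyes were below all P20 Nrf2 eyes, and mouse 4 was the exception. The log2 fold change with age was −1.10 ± 0.29 (adjusted p = 0.0293, edgeR) in control eyes and −0.89 ± 0.23 (adjusted p = 0.0940) in Nrf2 eyes. In control eyes the call was lost without P20 mice 1, 3, 5, or 7 or P40 mouse 5, left out singly, without P20 mice 3 and 4 together (−1.05, adjusted p = 0.0951), and without P40 mice 3, 5, 6, and 8 (−0.87, adjusted p = 0.0532).

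*Tyrp1*, which acts after tyrosinase and steadies it, was at 679 to 2285 CPM with a median of 1724 in control eyes at P20, and at 199 to 1499 CPM with a median of 871 at P40. In Nrf2 eyes its medians were 1964 CPM at P20 and 868 CPM at P40. The log2 fold changes were −0.85 ± 0.32 (adjusted p = 0.0769) and −1.05 ± 0.26 (adjusted p = 0.0818), and neither passed the threshold with edgeR. *Dct*, the tautomerase of dopachrome, showed the least difference of the enzymes. It was at 1643 to 4923 CPM with a median of 3712 in control eyes at P20, and at 1823 to 4941 CPM with a median of 2586 at P40, with log2 fold changes of −0.32 ± 0.26 (adjusted p = 0.400) in control eyes and −0.02 ± 0.48 (adjusted p = 0.982) in Nrf2 eyes. The Nrf2 eyes at P40 ranged from 792 to 12293 CPM. The highest was mouse 3, and the next highest was at 3254 CPM. Without P40 mice 3, 5, 6, and 8, the value of *Dct* in Nrf2 eyes was −0.71 ± 0.31 (adjusted p = 0.521).

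Of the transporters, *Oca2* (ENSMUSG00000030450, chromosome 7, 56239760 to 56536518), a melanosomal channel for anions, was at 198 to 313 CPM with a median of 243 in Nrf2 eyes at P20, and at 77.1 to 167 CPM with a median of 129 at P40, without overlap. Its log2 fold change was −0.96 ± 0.17 (adjusted p = 0.0134) in Nrf2 eyes. In control eyes it was at 179 to 297 CPM and at 36.5 to 262 CPM, with overlap, and the value was −0.61 ± 0.28 (adjusted p = 0.122). The call in Nrf2 eyes was lost without P20 mouse 6 (−0.89, adjusted p = 0.0566), without P20 mice 3 and 4 (−0.93, adjusted p = 0.0903), and with scaling to RPE markers (−1.17, adjusted p = 0.279), with a log2 fold change of −1.17 to −0.75 over all alternatives. *Slc45a2*, a sugar and proton transporter, was at 52.1 to 71.2 CPM in Nrf2 eyes at P20 and at 9.16 to 47.7 CPM at P40, also without overlap, with a log2 fold change of −1.13 ± 0.26 that did not pass the threshold (adjusted p = 0.0614). In control eyes it was at 34.7 to 72.7 CPM and 13.7 to 53.0 CPM (−0.53 ± 0.23, adjusted p = 0.113). The share of all genes whose groups do not overlap is not given here. Lack of overlap therefore only describes the libraries, for *Pmel*, for these genes, and for those named further on. *Slc24a5*, an exchanger of sodium, potassium, and calcium, was at medians of 412 and 365 CPM in control eyes (−0.13 ± 0.23, adjusted p = 0.718) and of 431 and 273 CPM in Nrf2 eyes (−0.41 ± 0.19, adjusted p = 0.180). It overlaps *Myef2* by 4050 bases on the opposite strand, and *Myef2* was at −0.0012 and 0.04.

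*Gpr143*, the receptor of the melanosome membrane whose loss causes ocular albinism, was at 53.5 to 120 CPM in control eyes at P20 and at 40.7 to 137 CPM at P40. Its log2 fold change was 0.20 ± 0.22 (adjusted p = 0.552) in control eyes and −0.42 ± 0.14 (adjusted p = 0.113) in Nrf2 eyes. *Rab38*, the small GTPase that brings TYRP1 and other cargo to melanosomes, was at medians of 56.3 and 34.6 CPM in control eyes and of 57.2 and 42.4 CPM in Nrf2 eyes. Its log2 fold changes were −0.51 ± 0.26 (adjusted p = 0.167) and −0.45 ± 0.21 (adjusted p = 0.190). Both therefore stayed short of the threshold at either comparison of the ages.

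Correction for mRNA length and GC content, an alternative chosen after the length slopes were seen, made all 10 log2 fold changes negative in both kinds of eye. In control eyes 3 of 10 genes were then called lower, *Pmel* (−2.002), *Tyr* (−1.14), and *Rab38* (−1.07, adjusted p = 0.0278), where 3.19% of all genes were called lower. In Nrf2 eyes 8 of 10 were called lower, where 0.532% of all genes were: *Tyrp1* (−1.14), *Pmel* (−2.60), *Mlana* (−0.71), *Slc45a2* (−1.08), *Oca2* (−0.89), *Slc24a5* (−0.79), *Gpr143* (−0.75), and *Rab38* (−0.91). *Tyr* (−0.92, adjusted p = 0.106) and *Dct* (−0.07, adjusted p = 0.954) were not.

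**Figure D3:**
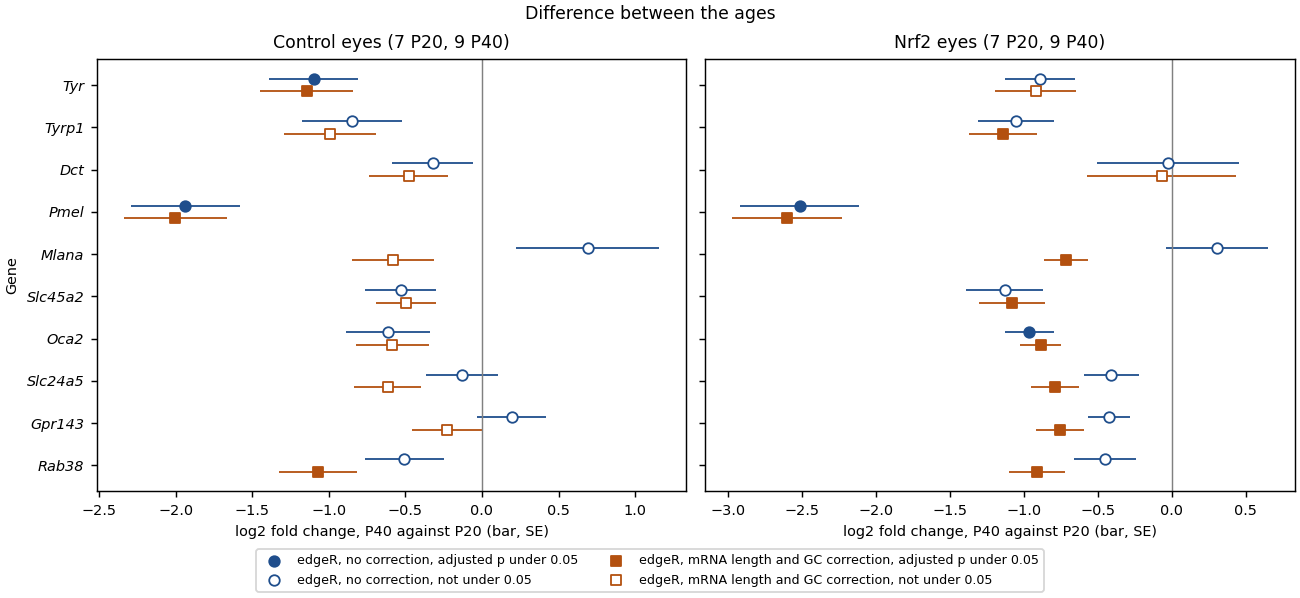
log2 fold change of each gene at P40 against P20, with its SE, for the control and the Nrf2 eyes (7 and 9 of each), without correction (circles) and with correction for mRNA length and GC content (squares). Filled symbols have an adjusted p under 0.05. *Pmel* lay farthest below 0 in all 4 fits, and *Mlana* crossed 0 with the correction.

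Some markers of other cells differed between the ages as well. Of 6 melanocyte markers, of which 5 could be tested, *Kit* (−1.25 ± 0.34, adjusted p = 0.0320) and *Erbb3* (−1.64 ± 0.51, adjusted p = 0.0423) were lower at P40 in control eyes and 0 were called in Nrf2 eyes. Their summed level was 125 to 279 CPM in control eyes at P20 and 42.1 to 199 CPM at P40, and 129 to 247 CPM and 51.9 to 219 CPM in Nrf2 eyes. *Foxd3* was at 3 counts or fewer in most libraries of every group. Of 6 fibroblast markers, 4 were lower at P40 in control eyes, as were 2 of 8 rod, 1 of 8 inner retina, and 1 of 5 blood markers. Markers of cones, macrophages, endothelium, muscle, and Müller glia were not called there. Of all genes tested in control eyes, 6.42% were called lower and 8.34% higher. Of 12 RPE markers, *Ttr*, *Kcnj13*, and *Trpm3* were higher and 0 lower in control eyes, with a summed level of 5704 to 28061 CPM at P20 and 11359 to 67518 CPM at P40. The part of these cells in the lower *Pmel*, *Tyr*, and *Oca2* was not tested.

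The second comparison asked whether Nrf2 changed these genes within a mouse. At P20, 0 of 10 genes were called with edgeR, where 3.41% of all genes were called, 2.93% as higher. At an unadjusted p under 0.05 there was 1 gene, *Tyr*. DESeq2 called 1, also *Tyr*, where it called 1951 of all 16303 genes tested. Limma voom with quality weights called 0, where it called 2605 of them. Without P20 mice 3 and 4, which hold the control eye and the Nrf2 eye whose transgene levels overlap, edgeR also called 0, with *Tyr* at 0.62 ± 0.22 (adjusted p = 0.165). At P40, 1 of 10 genes was called lower, *Gpr143*, where 1.23% of all genes were, and 0 were called higher, where 3.33% of all genes were. The median log2 fold change of the 10 genes was 0.14 at P20 and −0.20 at P40.

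*Gpr143* (ENSMUSG00000025333, chromosome X, 152781921 to 152808646) was at 40.7 to 137 CPM with a median of 108 in control eyes at P40 and at 42.9 to 87.4 CPM with a median of 56.2 in Nrf2 eyes. It was lower in the Nrf2 eye of 7 of 9 mice, and in mice 4 and 8 the eyes differed by 0.07 log2 units at most. The groups overlapped, with the control eye of mouse 8 the lowest of all 18 libraries and the Nrf2 eye of mouse 4 above the control eyes of mice 4 and 7 (both 84.7 CPM). The log2 fold change was −0.76 ± 0.19 (9 mice; adjusted p = 0.0397, edgeR), or 1.70-fold lower. The call rested on single mice. It was lost without any 1 of mice 1, 2, 3, 5, 7, or 9 (adjusted p up to 0.115), although the log2 fold change stayed between −0.86 and −0.69. It was also lost without mice 3, 5, 6, and 8 (−0.86 ± 0.25, adjusted p = 0.162) and with no filter on low counts (adjusted p = 0.0667). At P20 it was at 53.5 to 120 CPM in control eyes and 73.7 to 95.0 CPM in Nrf2 eyes, and the value was −0.14 ± 0.13 (adjusted p = 0.586).

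*Tyr* was higher in the Nrf2 eye of 7 of 7 mice at P20 and of 8 of 9 mice at P40, but did not pass the threshold at either age with edgeR over all mice. At P40 it passed with limma voom and quality weights (0.84, adjusted p = 0.0246) and with edgeR without mouse 6 (0.93, adjusted p = 0.0345). At P20 the differences within a mouse were 0.07 to 1.49 log2 units with a median of 0.45, and the fitted value was 0.52 ± 0.17 (adjusted p = 0.160). At P40 they ran from −0.84 in mouse 6 to 2.13 in mouse 8 with a median of 0.47, and the fitted value was 0.75 ± 0.27 (adjusted p = 0.187). The other enzymes did not move in 1 direction across mice. *Tyrp1* was higher in the Nrf2 eye of 4 of 7 mice at P20 (0.23 ± 0.31, adjusted p = 0.734) and of 5 of 9 mice at P40 (0.06 ± 0.31, adjusted p = 0.976). *Dct* was higher in 3 of 7 (−0.15 ± 0.29, adjusted p = 0.821) and in 5 of 9 (−0.33 ± 0.32, adjusted p = 0.792).

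*Pmel* was higher in the Nrf2 eye of 3 of 7 mice at P20 (0.13 ± 0.36, adjusted p = 0.888) and of 4 of 9 at P40 (−0.58 ± 0.43, adjusted p = 0.692). Its differences within a mouse at P40 spread from −3.21 in mouse 6 to 1.32 in mouse 8. *Mlana* was at 0.25 ± 0.22 (adjusted p = 0.591) and 0.02 ± 0.35 (adjusted p = 0.994). Of the transporters, *Slc45a2* was lower in 6 of 9 mice at P40 with a value of −0.56 ± 0.22 (unadjusted p = 0.0270 by edgeR, adjusted p = 0.272), against 0.12 ± 0.14 (adjusted p = 0.670) at P20. *Oca2* was at −0.05 ± 0.15 (adjusted p = 0.904) and −0.27 ± 0.22 (adjusted p = 0.733), and *Slc24a5* was at 0.16 ± 0.17 (adjusted p = 0.638) and −0.12 ± 0.23 (adjusted p = 0.929). *Rab38* was higher in the Nrf2 eye of 7 of 9 mice at P40, but its value of 0.25 ± 0.24 did not pass (adjusted p = 0.790), nor did the value of 0.16 ± 0.21 at P20 (adjusted p = 0.732).

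**Figure D4:**
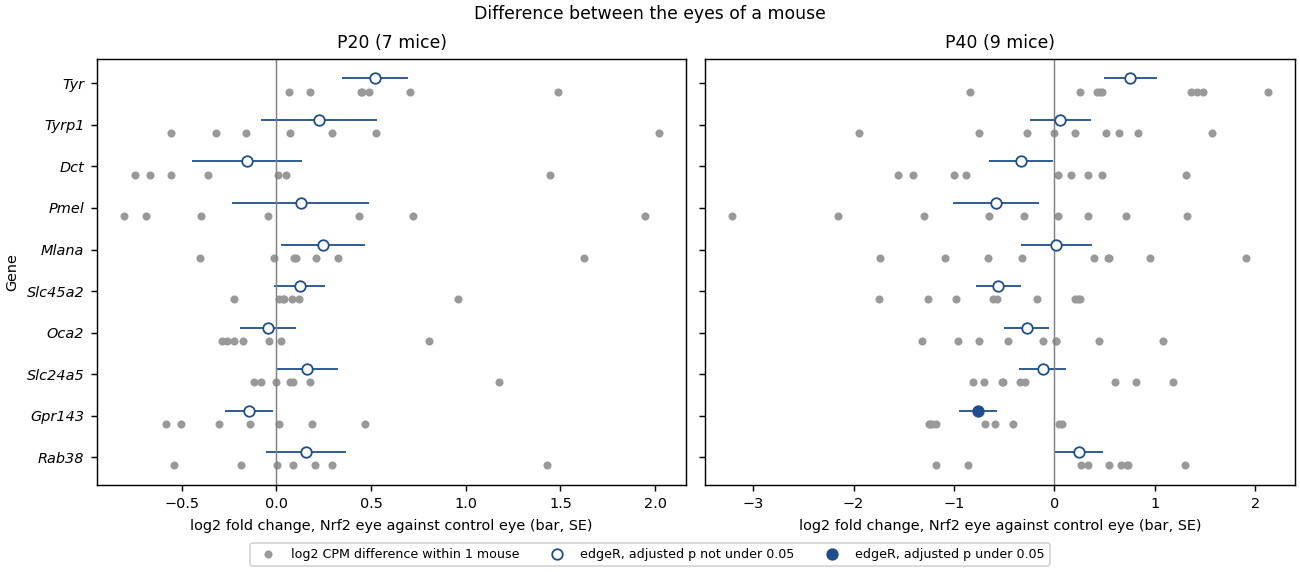
log2 fold change of each gene in Nrf2 eyes against control eyes at P20 (7 mice) and P40 (9 mice). Blue symbols with bars are the edgeR value and its SE, filled where the adjusted p was under 0.05, and grey points are the log2 CPM differences within each mouse. Only *Gpr143* at P40 (−0.76) is filled, and *Tyr* lay above 0 in 7 of 7 and 8 of 9 mice.

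In the same comparison at P40, 6 of 12 RPE markers were lower with Nrf2, among them *Rpe65* (−2.82 ± 0.32, adjusted p = 0.000281), *Lrat* (−1.80 ± 0.25, adjusted p = 0.00122), and *Rlbp1* (−1.18 ± 0.22, adjusted p = 0.00886), and at P20 *Rpe65* was lower (−2.17 ± 0.37, adjusted p = 0.0198). The RPE markers did not all move 1 way. Positive values were found for 2 of 12 at P40 and 4 of 12 at P20. At each age 1 of these had an unadjusted p under 0.05 by edgeR, and 0 were called higher. When the libraries were scaled to the summed RPE markers, 0 of the 10 melanosome genes were called at P40, *Gpr143* was at −0.29 (adjusted p = 0.697), and 8 of the 10 values were positive, with the median of all genes at 0.46. *Ttr* alone makes up 41.6% of that sum. All 8 cone markers were lower and 5 of 8 macrophage markers were higher in Nrf2 eyes at P40, and of the 5 melanocyte markers that could be tested 0 were called at either age. The part of these cells in the lower *Gpr143* was not tested.

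Whether the effect of Nrf2 differed between the ages was tested over all 32 libraries. With edgeR 0 of 10 genes were called, where 0.00557% of all genes were, and DESeq2 and limma voom called 0 as well. At an unadjusted p under 0.05 by edgeR there were 2, *Gpr143* (−0.61 ± 0.24) and *Slc45a2* (−0.67 ± 0.28), each with an adjusted p of 0.9995. The value of *Pmel* was −0.70 ± 0.60, with the same adjusted p. A difference of the Nrf2 effect on *Gpr143* between the ages was therefore not shown. With scaling to RPE markers, all 10 differences were positive, *Gpr143* at 0.04 among them, and the median of all genes was 0.70.

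Among 48 other genes of melanosome formation, transport, and ion and metal handling, of which 47 were tested in each comparison, Nrf2 raised *Atp7a*, the copper pump that loads tyrosinase, at P20 (0.70 ± 0.13, adjusted p = 0.0297). It raised *Slc7a11*, the cystine importer, at P20 (2.68 ± 0.33, adjusted p = 0.00921) and at P40 (3.55 ± 0.37, adjusted p = 0.000145). *Slc7a11* was at 12.8 to 57.7 CPM in control eyes and 57.9 to 390 CPM in Nrf2 eyes at P20, without overlap, and at 11.6 to 22.1 CPM and 77.1 to 448 CPM at P40, also without overlap. The other 45 and 46 genes were not called, and 2 and 1 of 47 higher are near the 2.93% and 3.33% of all genes called higher. With age in control eyes, 4 of the 47 genes were higher and 5 were lower, shares near the 8.34% and not far from the 6.42% of all genes. The genes that were higher were *Bloc1s1* (1.72), *Bloc1s2* (0.75), *Bloc1s4* (0.60), and *Snapin* (0.56), subunits of the BLOC-1 complex that sorts cargo to melanosomes. *Snapin* lies beyond the 4 genes that the naming rule allows and was named after its value was seen. The other subunits on the list, *Bloc1s3* (−0.01), *Bloc1s5* (0.37, adjusted p = 0.0788), *Bloc1s6* (−0.12), and *Dtnbp1* (0.19), were not called. The longest mRNAs are 613 to 1928 bases for the subunits called higher and 1589 to 5634 bases for those not called. The part of the length shift in these values was not tested. Those that were lower were *Ap3d1* (−0.76), of the adaptor complex AP-3, *Mlph* (−1.37), the linker of RAB27A to myosin, *Mfsd12* (−1.56), which takes cysteine into melanosomes, *Slc7a11* (−0.90), and *Trpm1* (−1.26), a channel under the control of MITF. In Nrf2 eyes *Mlph* (−1.41 ± 0.22, adjusted p = 0.00635) and *Trpm1* (−1.34 ± 0.29, adjusted p = 0.04996) were lower and 0 were higher. *Mlph* was at 80.7 to 245 CPM in control eyes at P20 and at 20.8 to 78.6 CPM at P40, without overlap.

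Of 10 regulators of pigment genes, *Crx*, a photoreceptor factor, was lower with Nrf2 at P40 (−3.34 ± 0.74, adjusted p = 0.0210), *Tfeb*, a lysosomal factor of the MITF family, was lower with age in control eyes (−0.65 ± 0.21, adjusted p = 0.0449), and 0 were higher in any comparison. *Mitf* itself was at 44.8 to 88.9 CPM in control eyes at P20 and 31.7 to 175 CPM at P40. Its log2 fold change with age was 0.63 ± 0.28 (adjusted p = 0.117) there, and −0.02 ± 0.17 (adjusted p = 0.957) in Nrf2 eyes. With Nrf2 it was at 0.29 ± 0.14 (adjusted p = 0.335) at P20 and −0.27 ± 0.19 (adjusted p = 0.677) at P40. *Otx2* was at 0.56 ± 0.22 (adjusted p = 0.0843) and 0.0088 ± 0.20 (adjusted p = 0.983) with age and at 0.23 ± 0.18 (adjusted p = 0.541) and −0.28 ± 0.17 (adjusted p = 0.585) with Nrf2. *Tfec* was low, at 0 to 6.79 CPM, and was not called. The medians of *Otx2* in control eyes were 288 CPM at P20 and 389 CPM at P40, and neither *Mitf* nor *Otx2* passed the threshold in the comparison in which *Pmel* and *Tyr* were lower.

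Within the 4 groups most of the 10 genes varied together from library to library. As deviations from the group mean over 32 libraries, 42 of the 45 pairs of genes had a positive Pearson's r, and the median was 0.546. The closest pairs were *Tyrp1* with *Pmel* (0.916), *Tyr* with *Tyrp1* (0.915), and *Tyr* with *Oca2* (0.883). *Mlana* was the exception, with r of −0.205 to *Slc45a2*, −0.177 to *Oca2*, and −0.124 to *Tyr*, and with r of 0.202 to the mean of the other 9 genes. Its closest gene was *Dct* (0.699). For *Dct* the r to the mean of the others was 0.440. For *Tyr* and *Tyrp1*, the other enzyme genes, it was 0.789 and 0.921. The points share a mouse in pairs, and depth, RPE content, and mRNA length composition are common to all genes of a library. The median r for pairs of other genes is not given here, so varying together is not shown to be particular to these genes.

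**Figure D5:**
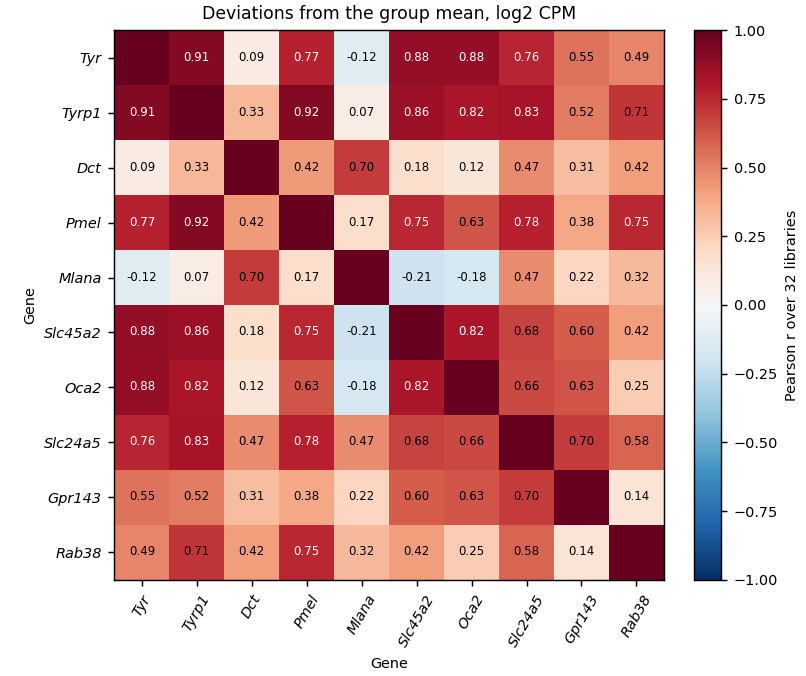
Pearson's r between each pair of the 10 genes over 32 libraries, as deviations of log2 CPM from the group mean. Red is positive and blue negative, and *Mlana* shows the 3 values below 0.

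A single library often set the extremes. The control eye of P20 mouse 6 was the lowest of its group for 9 of 10 genes, and the control eye of P40 mouse 8 for 8 of 10. The Nrf2 eye of P40 mouse 4 was the highest of its group for 7 of 10. The genes outside this list whose deviations were most like the mean of the 10 over the 32 libraries, among 11782 genes, were *Pmp22* (r = 0.940), *Rapsn* (0.935), *Fcgrt* (0.932), *Gpr180* (0.927), and *Hexa* (0.908). Among the other pigment genes, *Gpnmb*, a relative of *Pmel*, ranked 12 and *Trpm1* ranked 13 by this measure, with r of 0.889 and 0.886, and *Mitf* ranked 1115 with r of 0.561.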

How the data were processed

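The authors deposited a table of estimated counts, which they had rounded to integers, without normalization. Their methods name STAR with featureCounts and, in parallel, Salmon (0.9.1 in the submitters' processing notes) with tximport and DESeq2, on mm10. Which of these made the estimated counts is not given in the sources used here, and neither is the sequencing run of each library. RNA was amplified with a kit that does not mark strand. Here edgeR 4.0.16 (R 4.3.3) kept genes by filterByExpr, normalized by TMM, and applied the quasi-likelihood test with the Benjamini-Hochberg adjustment over all genes tested and a threshold of 0.05. SEs were derived from the F statistic. Log2 CPM used a prior count of 2. Nrf2 comparisons and the difference between the ages had the mouse as a block. The labels number the eyes but name no mouse, so the mouse was inferred from equal numbers. As a check, deviations from the group mean were correlated within mice (mean r, −0.0256 for P20, 0.139 for P40) and between mice (0.0044, −0.0018). At P20 the paired eyes were thus no more alike than other eyes, and the check does not bear out the pairing there. Comparisons of the ages had no block. Alternatives used DESeq2 1.42.0, limma 3.58.1, other scalings and filters, left-out mice, and a spline on mRNA length and GC content added to the offsets. The fits were tested on simulated data. The genes, lists, and tests were chosen with earlier results of these data known. Named were all 10 genes, and from the other pigment lists the genes past the threshold, up to 4 per list and comparison, with *Mitf*, *Otx2*, and *Tfec*, and the 5 most similar genes with a mean log2 CPM of at least 2. Symbols, coordinates, and mRNA lengths are from GENCODE M21 (GRCm38). Levels per kb use the longest mRNA, which may not be the form expressed. Totals were 16548332 to 50542797 counts per library, and the spread between mice limits the precision.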

Additional observations from a re-analysis of the deposited data

Results flagged for a closer look

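The 10 genes in the 4 groups gave 40 sets of libraries, and 3 were beyond the limit used. Chance alone would place about 1 in 20 beyond it if the values were normally distributed, which was not tested. The limit was applied to CPM, and on a log scale the libraries flagged can differ. For *Dct*, the Nrf2 eye of P40 mouse 3, at 12293 CPM, stood far above the next highest of its group, at 3254 CPM. The control eye of the same mouse, at 4941 CPM, stood above the next highest, at 3301 CPM. For *Slc24a5*, the control eye of P40 mouse 8, at 116 CPM, stood far below the next lowest, at 281 CPM. Both eyes of both mice had scores among the 6 highest on the first principal component of the expressed coding genes.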

How the results depend on the processing

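The number of the 10 genes called moved with the processing. So did the number of all genes called, which is given in parentheses for most settings. With Nrf2 at P20, 0 of the 10 were called (556 of 16303 genes), and 1 with DESeq2 (1951). With Nrf2 at P40, 1 of the 10 was called (762 of 16686 genes), and 2 with limma voom and quality weights (1327). The number was 0 with scaling to RPE markers (338), with no filter (717 of 27653), and without P40 mice 3, 5, 6, and 8 (494 of 16818). It was 0 to 2 with single mice left out. With age in control eyes, 2 of the 10 were called (2483 of 16832 genes), and 5 with voom and quality weights (3747). Scaling to RPE markers, which moved the median of all genes to −1.01, gave 8 (5495). Voom with the mouse as a random effect gave 4 (1950 of 17959). The number was 1 without P20 mice 3 and 4 (158 of 17254) and 1 without P40 mice 3, 5, 6, and 8 (630 of 16990). It was 1 to 2 with single mice left out. With age in Nrf2 eyes, 2 of the 10 were called (84 of 16745 genes), 5 with DESeq2 (1832), and 6 with voom and quality weights (2213). The number was 0 with scaling to RPE markers (1), 5 at an adjusted p under 0.1, and 8 with the length and GC correction (129). It was 1 without P20 mice 3 and 4 (20 of 17293) and 1 without P40 mice 3, 5, 6, and 8 (36 of 16799). With single mice left out it was 1 to 4. The cause was not tested.

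Without the replicate block, that is, without pairing the eyes of a mouse, the calls were 0 at P20, 1 at P40, and 0 for the difference between the ages, and *Tyrp1* (−0.00738), *Dct* (0.12), and *Mlana* (−0.18) at P40 and *Dct* (0.30) in the difference changed sign. The block changed no other call.

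Other changes of sign were in values that were not called in the report. With voom, *Tyrp1* (−0.048), *Pmel* (−0.25), and *Rab38* (−0.077) changed with Nrf2 at P20, *Mlana* at P40 (−0.025) and with age (−0.037 in control and −0.23 in Nrf2 eyes), and *Tyrp1* (0.26) and *Dct* (0.25) in the difference between the ages. With scaling to RPE markers, *Slc45a2* (−0.051) and *Slc24a5* (−0.0021) changed at P20, *Dct* (0.20), *Pmel* (0.0094), *Oca2* (0.24), and *Slc24a5* (0.39) at P40, *Mlana* (−0.89) and *Gpr143* (−0.85) with age in control eyes, *Mlana* (−0.28) in Nrf2 eyes, and *Tyrp1* (0.53), *Dct* (0.49), *Pmel* (0.00096), *Mlana* (0.37), *Slc45a2* (0.0036), *Oca2* (0.45), *Slc24a5* (0.39), and *Gpr143* (0.043) in the difference. With the length and GC correction, *Mlana* (−0.58 and −0.71) and *Gpr143* in control eyes (−0.23) changed with age. Without P40 mice 3, 5, 6, and 8, *Mlana* was at −0.26 and −0.38, and without P20 mice 3 and 4 *Rab38* was at −0.0076 in the difference. With single mice left out, values at P20 ran from −0.020 to 0.38 for *Tyrp1*, −0.13 to 0.31 for *Pmel*, −0.16 to 0.013 for *Oca2*, and −0.017 to 0.29 for *Rab38*. At P40 they ran from −0.12 to 0.28 for *Tyrp1* and −0.20 to 0.24 for *Mlana*, with age in Nrf2 eyes from −0.77 to 0.11 for *Dct*, and in the difference from −0.37 to 0.11 for *Tyrp1*, −0.36 to 0.072 for *Dct*, and −0.057 to 0.29 for *Rab38*.

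Counts over all genes also moved with the processing. With Nrf2 at P20, 556 genes were called, against 1951 with DESeq2, 2605 with voom, 227 with scaling to RPE markers, and 348 with no filter. At P40, 762 were called, against 1380, 1327, 338, and 494 without P40 mice 3, 5, 6, and 8. With age in control eyes, 2483 were called, against 158 without P20 mice 3 and 4 and 5495 with scaling to RPE markers, and in Nrf2 eyes 84, against 1 with that scaling and 2213 with voom. With single mice left out, the counts ran from 111 (without mouse 7) to 1999 (without mouse 4) with Nrf2 at P20, from 521 to 997 at P40, from 473 (without P20 mouse 5) to 4273 (without P40 mouse 1) with age in control eyes, and from 21 (without P20 mouse 6) to 190 (without P40 mouse 2) in Nrf2 eyes, so that the shares of all genes called move by as much. The correction for length and GC content and the omission of P40 mice 3, 5, 6, and 8 were chosen after seeing the data.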
